A study of Homo sapiens with 6 samples.

Results

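The clustered protocadherin genes lie together on chromosome 5, and peaks were taken from 3 stretches of that region on hg19: the alpha stretch at 140.16 to 140.4 Mb, the beta stretch at 140.43 to 140.63 Mb and the gamma stretch at 140.71 to 140.9 Mb. The members are the distinct intervals of the 4 deposited peak lists that overlap a stretch by at least 1 bp, which gave 60 of the 271093 intervals in the lists. They are 12 of 45188 LSD1 peaks with DMSO, 14 of 49597 LSD1 peaks with inhibitor, 26 of 81619 H3K4me2 intervals and 8 of 94689 H3K4me1 intervals. The stretches stand for 53 genes, 15 alpha, 16 beta and 22 gamma, and were set by position without use of any peak value. The members were nevertheless chosen with earlier results of these data known.

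Chromatin immunoprecipitation followed by sequencing (ChIP-seq) was done in NCI-H526, an established human small cell lung cancer line labelled as epithelial. LSD1 was mapped in cells given DMSO, the vehicle, and in cells labelled GSK552, which per the treatment text received the LSD1 inhibitor GSK2879552 at 1 µM over 24 hours. Both histone marks come from DMSO cells alone, so nothing is given here on H3K4me2 or H3K4me1 with inhibitor. The 6 samples, 2 of them inputs, each form a group of 1 library, so no difference below has a replicate check and none carries a p-value.

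Clustered protocadherins are cell surface adhesion proteins best known from neurons, where each cell uses its own small choice of them. In the alpha and gamma clusters each variable exon has its own promoter and is spliced to constant exons shared by the cluster, while each beta gene is a single exon. At the end of the alpha and gamma clusters lie the C-type exons, which are used more uniformly than the variable ones. CTCF and cohesin bind many of these promoters, and methylation of their CpG sites is tied to silence. LSD1 (KDM1A) removes methyl groups from H3K4me1 and H3K4me2. H3K4me2 is common at promoters and enhancers, and H3K4me1 is common at enhancers.

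Most promoters of the members hold a short sequence, which is shown here. It was searched in promoter sequences only, and not along the stretches or under the peaks. RefSeq sequences on GRCh38.p14, from 250 bases before to 50 bases after the annotated start, matched 47 of the 53 genes, all on the plus strand of chromosome 5. The first entry was used where a gene had more than 1. The motif GNCGCT, where N is any base, was chosen after these sequences were seen and was searched on both strands. It was found in 45 of the 47 promoters, against 44.0% of all 35116 promoters in the table. In 39 of the 47 (83.0%) it began on the plus strand between 40 and 85 bases before the start, a window also chosen after the sequences were seen, against 5.87% of all promoters. The lines below give the motif in capitals with 20 bases on each side, 5′ to 3′, for the first members of each variable class with the motif in that window.
PCDHA1: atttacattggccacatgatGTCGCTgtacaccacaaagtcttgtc
PCDHA2: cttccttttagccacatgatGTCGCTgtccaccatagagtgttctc
PCDHB2: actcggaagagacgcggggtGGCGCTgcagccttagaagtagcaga
PCDHB3: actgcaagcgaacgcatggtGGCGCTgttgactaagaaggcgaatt
PCDHGA2: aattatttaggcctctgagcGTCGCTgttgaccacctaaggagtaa
PCDHGA3: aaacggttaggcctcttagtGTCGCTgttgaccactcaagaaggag
PCDHGB1: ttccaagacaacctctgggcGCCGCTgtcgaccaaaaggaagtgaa

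Variable and C-type promoters differed in base composition. The 11 matched alpha variable promoters held 3 to 9 CpG sites in 300 bases (median 7), the 14 beta promoters 5 to 12 (median 7.5) and the 18 gamma variable promoters 2 to 16 (median 6.5). The 2 alpha C-type promoters held 15 and 27 CpG sites and the 2 matched gamma C-type promoters 18 and 23, against a median of 14 over all promoters in the table. The lowest count was 2, in PCDHGA4 (GC content 32.3%), and the ranges met, with 16 in PCDHGB6 and 15 in PCDHAC2. PCDHA1, with 4 CpG sites and a GC content of 34.0%, and PCDHAC1, with 27 and 66.0%, are given whole as examples, with CpG in capitals.
PCDHA1: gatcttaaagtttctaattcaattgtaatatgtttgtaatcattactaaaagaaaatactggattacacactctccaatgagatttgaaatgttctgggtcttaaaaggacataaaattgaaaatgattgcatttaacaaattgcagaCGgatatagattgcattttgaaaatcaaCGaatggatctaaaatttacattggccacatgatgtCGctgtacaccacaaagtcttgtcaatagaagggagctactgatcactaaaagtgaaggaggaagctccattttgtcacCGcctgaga
PCDHAC1: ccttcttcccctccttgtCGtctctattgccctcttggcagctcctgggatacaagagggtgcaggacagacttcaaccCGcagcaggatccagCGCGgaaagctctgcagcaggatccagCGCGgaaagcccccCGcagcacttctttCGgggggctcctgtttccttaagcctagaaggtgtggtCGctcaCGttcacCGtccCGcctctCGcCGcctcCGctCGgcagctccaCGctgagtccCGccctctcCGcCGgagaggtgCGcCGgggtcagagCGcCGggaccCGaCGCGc
These sequences carry no hg19 position, and no hg19 annotation was used, so peaks below are named by stretch and position and no peak is assigned to 1 of the 53 genes.

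H3K4me2 gave the most intervals in the stretches, and H3K4me1 was sparse beside it. The 3 stretches, 630 kb in all, held 41.3 H3K4me2 intervals per Mb, against 21.7 on chromosome 5 and 79.0 within 1 Mb on either side of the region. For H3K4me1 the stretches held 12.7 intervals per Mb, against 24.7 on chromosome 5 and 101.0 in the flanks. By stretch this was 4.17 for alpha, 0 for beta and 36.8 for gamma, so the gamma stretch lay above chromosome 5. H3K4me2 covered 3.41% of the stretches and 1.51% of chromosome 5, while H3K4me1 covered 0.666% and 1.69% (gamma alone 1.95%). LSD1 peaks numbered 19.0 per Mb with DMSO and 22.2 per Mb with inhibitor, against 11.02 and 12.1 on chromosome 5 and 34.5 and 43.0 in the flanks. LSD1 coverage of the beta stretch was below that of chromosome 5, at 0.383% against 0.644% with DMSO and 0.419% against 0.627% with inhibitor. For every list, the 3 stretches together were less densely marked than the flanking sequence.

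**Figure D1:**
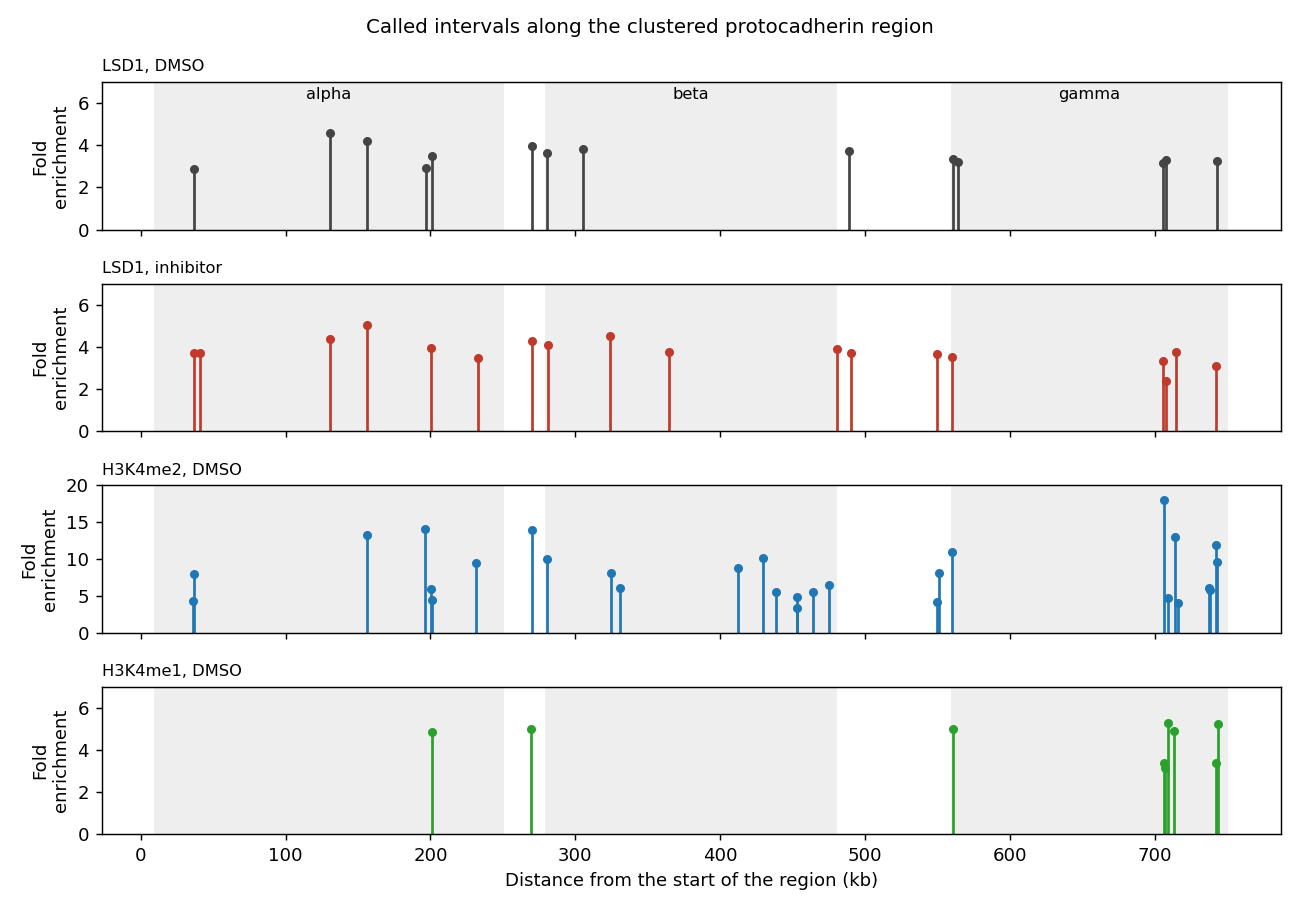
Fold enrichment (the authors' value) of each called interval along the region, in kb from its start, for the 4 libraries; each stem is 1 interval, grey marks the 3 stretches, and the H3K4me2 panel has a longer axis. H3K4me2 stands in all 3 stretches, the beta stretch has no H3K4me1 interval, and the interior of the gamma stretch is empty in every list.

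The H3K4me2 intervals mostly lacked H3K4me1. In the 3 stretches 6 of 26 (23.1%, exact 95% binomial interval 8.97 to 43.6%) overlapped H3K4me1, against 63.1% of all H3K4me2 intervals and 113 of 158 (71.5%, 63.8 to 78.4%) in the flanks. This interval, like the later ones, reflects the number of peaks counted and no other error, and peaks close to each other may not be independent. The share was 1 of 7 in the alpha stretch, 0 of 10 in the beta stretch (upper bound 30.8%) and 5 of 9 (55.6%, 21.2 to 86.3%) in the gamma stretch. With the neighbourhood widened to 1 kb, 8 of 26 had H3K4me1 nearby, against 74.3% of all H3K4me2 intervals. In the beta stretch the H3K4me1 interval nearest to any H3K4me2 interval was 10677 bp away. Among intervals of 1 kb or wider, a limit chosen after the data were seen, 2 of 8 overlapped H3K4me1, against 71.4% of such intervals over all chromosomes.

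Seen from the other mark, the few H3K4me1 intervals lay on or beside H3K4me2. Of the 8, 7 overlapped H3K4me2 (87.5%, 47.3 to 99.7%), against 47.4% of all H3K4me1 intervals. All 8 had it within 1 kb (63.1 to 100%), against 66.3%. Both counting intervals include the value over all chromosomes, so neither share is told apart from it. The exception at chr5:140863051-140863312 ended 83 bp before an H3K4me2 interval. At chr5:140711009-140711256 the H3K4me1 interval shared a single base with H3K4me2. LSD1 met 5 of the 8 with DMSO (62.5%, 24.5 to 91.5%; background 23.7%) and 3 of 8 with inhibitor (background 23.8%). Folds of the H3K4me1 intervals ran from 3.17 to 5.31, and 3 of 8 had a score above the median of their list.

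The alpha stretch held 3 prominent H3K4me2 intervals, 2 of them with LSD1. The highest, at chr5:140345464-140347033, was 1570 bp wide with 4 summits, a fold of 14.1 and a −log10 q of 41.8, which is above 94.6% of the H3K4me2 list. Next came chr5:140305411-140307584, the widest of the stretch at 2174 bp with 5 summits and a fold of 13.2, and chr5:140380728-140382121, 1394 bp wide with a fold of 9.52. None of these overlapped H3K4me1. The only H3K4me1 interval of the alpha stretch, chr5:140350710-140351196 (fold 4.87), overlapped a weaker H3K4me2 interval with a fold of 4.39. Near the proximal end, chr5:140186341-140187161 had a fold of 8.03. Between it and the interval at 140305411, 118 kb carried no H3K4me2.

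The beta stretch had the most H3K4me2 intervals but the narrowest ones, at a median of 455 bp, against 821 bp in the alpha and 729 bp in the gamma stretch. By score its 3 leading intervals were chr5:140430209-140431412, the widest at 1204 bp with a fold of 10.0, chr5:140579176-140579777 with a fold of 10.1, and chr5:140561955-140562641 with a fold of 8.78. From position 140561955 to 140625177, 7 intervals of 164 to 687 bp stood without any LSD1 peak or H3K4me1 interval. Neighbouring H3K4me2 intervals of the beta stretch were a median of 10.9 kb apart, against 16.5 kb in the alpha and 2.06 kb in the gamma stretch. In the beta stretch 9 of 20 bins of 10 kb were occupied, against 5 of 24 for alpha and 5 of 19 for gamma (11.1% of bins on chromosome 5). The number of intervals enters these bin counts, with 10 in the beta, 7 in the alpha and 9 in the gamma stretch.

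In the gamma stretch the marks were gathered at both ends. The proximal interval at chr5:140709998-140711009, which begins 2 bp before the border of the stretch, had 3 summits and a fold of 10.98. From 140714291 to 140855048, 141 kb held no interval of any list; 273 of the 6407 such gaps on chromosome 5 were at least as long. Past this gap came the strongest H3K4me2 interval of the region, chr5:140855049-140858199, which was 3151 bp wide with 7 summits, a fold of 18.1 and a −log10 q of 52.3, above 97.6% of the list. It was followed by chr5:140863395-140865503, 2109 bp wide with a fold of 13.1, and by chr5:140892189-140892917 with a fold of 11.9. The 7 H3K4me1 intervals of the stretch all lay at these same ends, the widest being chr5:140892993-140894338 with 1346 bp and a fold of 5.24. By score the leading ones were this interval, chr5:140858891-140859409 (fold 5.31) and the single-base neighbour named above (fold 4.99).

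**Figure D2:**
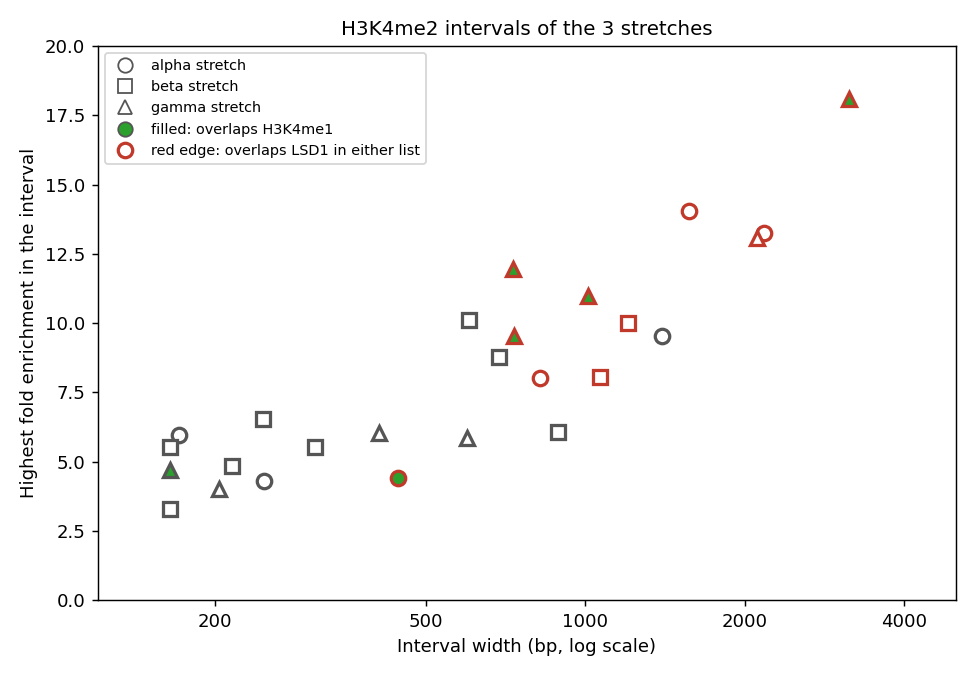
Width (log scale) and highest fold enrichment of the 26 H3K4me2 intervals, with shape giving the stretch, fill giving overlap with H3K4me1 and a red edge giving overlap with LSD1 in either list. The 11 intervals with LSD1 reach from 443 to 3151 bp and 4.39 to 18.1-fold, and the 15 without it from 164 to 1394 bp and 3.29 to 10.1-fold.

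LSD1 was found at 11 of the 26 H3K4me2 intervals (42.3%, 23.4 to 63.1%) in at least 1 of its lists, against 49.8% of all H3K4me2 intervals, so the share was near the background. The shares by condition were also near it, with 9 of 26 in each LSD1 list (34.6%, 17.2 to 55.7%), against 35.4% with DMSO and 40.8% with inhibitor over all chromosomes. In the stretches the H3K4me2 intervals with LSD1 had a median width of 1064 bp and a median fold of 10.98, and those without had 247 bp and 5.86. The same order held over all chromosomes, with 704 bp and 7.55 against 285 bp and 5.36. Intervals of 1 kb or wider numbered 8 of 26 in the stretches, against 24.2% of the list. Of these 8, 7 met LSD1 in either list (background 77.5%), 5 with DMSO (background 58.6%) and 6 with inhibitor (background 68.2%). The exception was the alpha interval at 140380728, from which the nearest inhibitor peak was 113 bp away.

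The H3K4me2 intervals were also sorted by which of the other signals they met. Those with neither H3K4me1 nor LSD1 made up 14 of 26 (53.8%, 33.4 to 73.4%), against 20.2% over all chromosomes and 20 of 158 (12.7%, 7.91 to 18.9%) in the flanks, and 8 of the 14 lay in the beta stretch. Intervals with H3K4me1 but no LSD1 made up 1 of 26, against 30.0% over all chromosomes. LSD1 with H3K4me1 was met at 5 of 26 (6.55 to 39.4%, background 33.1%). LSD1 without H3K4me1 was met at 6 of 26 (8.97 to 43.6%, background 16.7%), and both intervals include the background. These classes are not separate from the shares above. No H3K4me1 was met at 20 of 26 (background 36.9%) and no LSD1 at 15 of 26 (background 50.2%). No test between the stretches and the rest was run, since each list comes from 1 library.

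**Figure D3:**
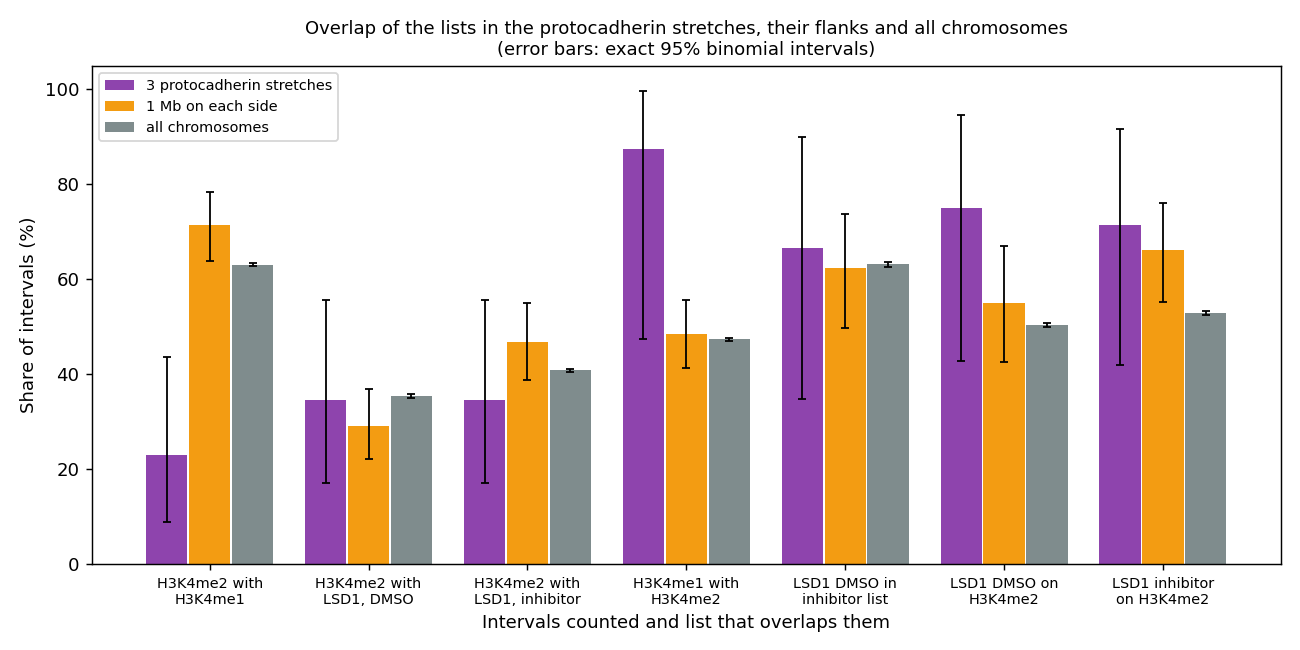
Share of intervals (%) that overlap another list, in the 3 protocadherin stretches, within 1 Mb on either side and over all chromosomes, with exact 95% binomial intervals as bars. H3K4me2 with H3K4me1 stands at 23.1% in the stretches against 63.1% over all chromosomes. For the 5 shares shown that involve LSD1 the intervals in the stretches include the value over all chromosomes. So does the interval for H3K4me1 with H3K4me2 (47.3 to 99.7%, against 47.4%).

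The LSD1 peaks were also ranked within their lists, over all 3 stretches and by stretch. Over all 3 stretches the median −log10 q was 1.498 with DMSO and 2.31 with inhibitor, against 1.95 and 2.88 over the whole lists, and 4 of 12 and 5 of 14 peaks lay above their list's median score. A −log10 q of at least 2 was reached by 4 of 12 with DMSO (33.3%, 9.92 to 65.1%; background 48.0%) and 10 of 14 with inhibitor (71.4%, 41.9 to 91.6%; background 75.3%), and both intervals include the background. Folds ran from 2.87 to 4.59 with DMSO and from 2.38 to 5.04 with inhibitor. In the beta stretch 2 of 2 DMSO peaks and 2 of 3 inhibitor peaks lay above the median score of the list, and in the alpha stretch 2 of 5 and 3 of 6. In the gamma stretch none of the 5 peaks of either list reached its list's median score, although the strongest H3K4me2 interval lies there.

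The overlap of LSD1 peaks with H3K4me2 was not told apart from the background by the counting intervals. With DMSO 9 of 12 peaks overlapped H3K4me2 (75.0%, 42.8 to 94.5%; background 50.4%), and with inhibitor 10 of 14 (71.4%, 41.9 to 91.6%; background 52.9%). In the flanks the shares were 38 of 69 (55.1%) with DMSO and 57 of 86 (66.3%) with inhibitor. Among peaks and intervals with a −log10 q of at least 2, the DMSO share in the stretches was 2 of 4 (background 56.7%). The inhibitor share was then 7 of 10 (background 54.4%). With the highest 50% of scores, the shares were 2 of 4 with DMSO (background 42.7%) and 4 of 5 with inhibitor (background 42.2%). Of all LSD1 peaks in the stretches, 4 of 12 with DMSO overlapped H3K4me1 (background 41.5%). With inhibitor this was 3 of 14 (21.4%, 4.66 to 50.8%, background 39.5%). H3K4me2 without H3K4me1 lay under 5 of 12 DMSO peaks (41.7%, 15.2 to 72.3%; background 18.7%) and 7 of 14 inhibitor peaks (interval 23.04 to 76.96%; background 22.9%); the DMSO interval includes its background and the inhibitor one lies just above it. Both marks lay under 4 of 12 (background 31.7%) and 3 of 14 (background 30.0%), and neither mark under 3 of 12 (background 39.8%) and 4 of 14 (background 37.6%). H3K4me1 alone lay under 0 of 12 and 0 of 14, against 9.84% and 9.49% of the lists. Where LSD1 met H3K4me2, the highest summit of the mark fell inside the LSD1 peak in 5 of 9 intervals with DMSO (background 57.9%) and 4 of 9 with inhibitor (background 52.9%).

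The DMSO and inhibitor LSD1 lists were then compared site by site. Joined over both lists, the LSD1 peaks of the stretches formed 18 sites, of which 8 were in both lists, 4 in the DMSO list only and 6 in the inhibitor list only. Of the DMSO peaks, 8 of 12 were overlapped by an inhibitor peak (66.7%, 34.9 to 90.1%; background 63.2%), and of the inhibitor peaks 8 of 14 by a DMSO peak (57.1%, 28.9 to 82.3%; background 58.1%). Both shares were near the background.

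The 4 shared alpha sites included the LSD1 site with the highest −log10 q of the region in both lists. At chr5:140306065-140306446, on the widest alpha H3K4me2 interval, the fold was 4.19 with DMSO and 5.04 with inhibitor, and the −log10 q was 3.70 and 6.12, above 85.5% and 88.0% of the lists. At chr5:140186548-140187255, also on H3K4me2, the fold was 2.87 and 3.71 and the −log10 q 1.22 and 3.11. This was the largest shift in rank among the shared sites, from 9.68% to 55.2% of the list below it. At chr5:140280271-140280565, which lies 24846 bp from H3K4me2, the fold was 4.59 and 4.39 and the −log10 q 3.18 and 2.99. At chr5:140350602-140350872, on both marks, the fold was 3.49 and 3.93 and the −log10 q 1.82 and 2.82.

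The beta stretch had 1 shared site and the gamma stretch 3. The beta site at chr5:140430468-140431316, on the H3K4me2 interval with the highest −log10 q of that stretch, had a fold of 3.64 with DMSO and 4.08 with inhibitor and a −log10 q of 2.29 and 3.32. At the proximal gamma site, chr5:140710031-140710811, the fold was 3.35 and 3.53 and the −log10 q 1.43 and 2.08. On the strongest H3K4me2 interval of the region, at chr5:140855455-140856579, the fold was 3.18 and 3.33 and the −log10 q 1.36 and 1.94. The distal gamma site at chr5:140892081-140893272 had a fold of 3.28 and 3.11 and a −log10 q of 1.44 and 1.71. Over the 8 shared sites the fold was higher with inhibitor at 6 (background 65.6% of 29329 overlapping pairs) and the −log10 q at 7 (background 75.3%), while the rank within the list was higher at 5 (background 48.8%). The median ratio of inhibitor to DMSO fold was 1.09 in the stretches and 1.08 over all pairs.

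**Figure D4:**
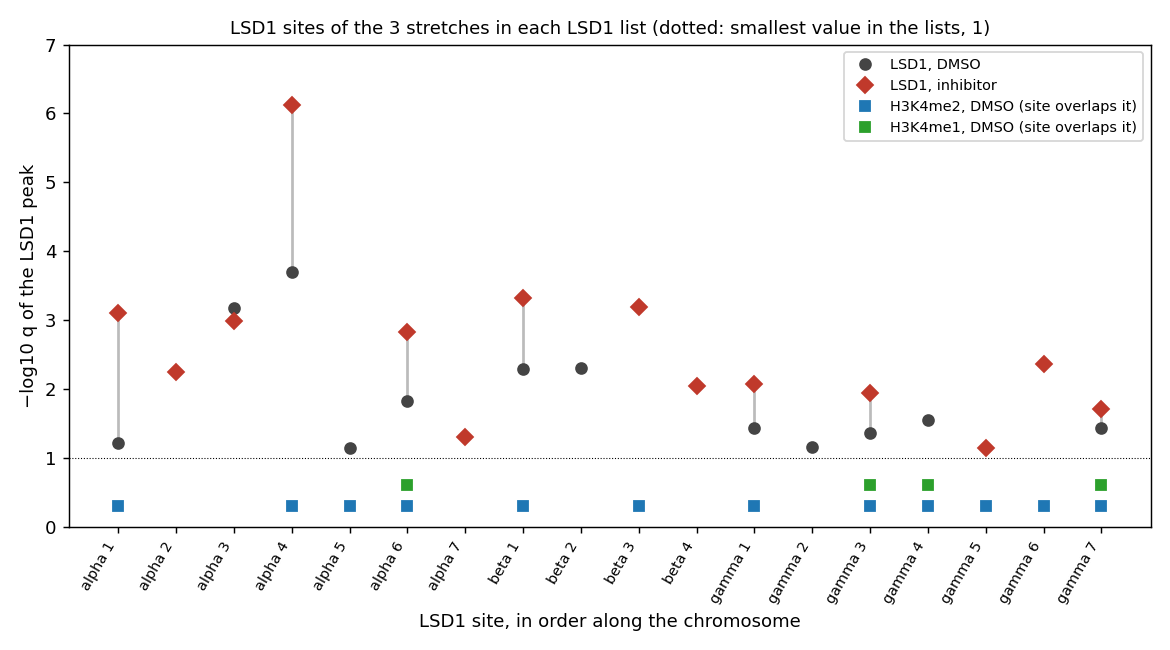
The −log10 q (the authors' value) of the LSD1 peaks at the 18 sites of the stretches, in order along the chromosome, with DMSO (circles) and inhibitor (diamonds); squares mark sites that overlap H3K4me2 or H3K4me1. Lines join the 8 sites in both lists, of which 7 are higher with inhibitor.

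Of the 10 sites in 1 list only, some lay beside a peak of the other list. With DMSO only were chr5:140346298-140346912 (fold 2.92, −log10 q 1.14), which lies on the highest H3K4me2 interval of the alpha stretch, and chr5:140454970-140455122 (3.83, 2.30), 19148 bp from H3K4me2. The gamma DMSO-only sites were chr5:140714138-140714290 (3.19, 1.16) and chr5:140857465-140857921 (3.33, 1.56). The last of these abuts the inhibitor-only site chr5:140857922-140858085 (2.38, 1.14) without sharing a base, and both lie on the same H3K4me2 interval. Among the 4 DMSO-only sites, the beta one alone reached a −log10 q of 2, against 48.0% of all DMSO peaks.

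Of the 6 inhibitor-only sites, 4 had a −log10 q of 2 or more. Over the whole lists this was 75.3% of inhibitor and 48.0% of DMSO peaks, so the lists themselves differ in this. The beta site chr5:140474125-140474273 had a fold of 4.53 and a −log10 q of 3.19, and it overlapped the edge of an H3K4me2 interval with a fold of 8.05. The gamma site chr5:140864536-140865324 had a fold of 3.77 and a −log10 q of 2.36, and it covered the highest summit of the second widest gamma H3K4me2 interval, from which the nearest DMSO peak was 5474 bp away. The alpha site chr5:140190870-140191105 (fold 3.70, −log10 q 2.25) and the beta site chr5:140514815-140514981 (3.76, 2.04) lay off both marks. The remaining alpha site, chr5:140382234-140382786, had a fold of 3.47 and a −log10 q of 1.30. With a smallest −log10 q of 1.00 in the DMSO list and 1.01 in the inhibitor list and unknown depth, absence from 1 list is not shown to be absence of LSD1.

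Outside the 3 stretches, the region held 10 more intervals. Between the alpha and beta stretches, an H3K4me2 interval at chr5:140419198-140420813 had 5 summits and a fold of 13.9, held a short H3K4me1 interval (fold 4.99), and met LSD1 in both lists, with a fold of 3.95 with DMSO and 4.29 with inhibitor. Between the beta and gamma stretches lie SLC25A2 and TAF7, by the gene order of RefSeq on GRCh38.p14. There H3K4me2 stood at chr5:140700512-140701182 (fold 8.05) and more weakly at chr5:140699495-140699658 (fold 4.15), with an inhibitor LSD1 peak of fold 3.66 between them and none with DMSO. The inhibitor peak chr5:140630534-140630672 (fold 3.89) lay just outside the beta border. Farther on, a DMSO peak at chr5:140638740-140638902 (fold 3.75) and an inhibitor peak at chr5:140640047-140640654 (fold 3.73) lay 1145 bp apart.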

How the data were processed

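Peak lists of 4 ChIP-seq libraries were used, and 2 inputs were not used here. BWA, Picard and MACS2 2.0, with build hg19, are named in the submitters' processing notes. Not given in the sources used here were the control, duplicate treatment, depth and the placing of reads that match several similar genes. Each deposited list belongs to 1 library, per the labels, and has no header. The deposited score is the whole part of 10 times the −log10 q in at least 99.99% of the rows of each list. Fold enrichment, as deposited, is a ratio set against the local background of the caller. Significance per peak was deposited as −log10 q and −log10 p by the authors, used only to describe and rank peaks within a list. LSD1 lists have the broad layout with −log10 q from 1.00, histone lists the narrow layout from 2.01, so LSD1 lists reach weaker peaks. Repeated rows of an interval (1 per summit) were joined, keeping the highest values.

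Overlap means 1 shared bp. Chromosome length was the largest peak end. Distances count to the nearest base. Shares have exact (Clopper-Pearson) 95% intervals, for counting error only. On simulated intervals the search for overlaps was tested against known answers. Python 3.11.15, pandas 2.3.3 and scipy 1.17.1 were used. Named peaks were, per stretch, every LSD1 peak (lists of up to 10), and the 3 highest-scoring and the widest histone intervals, and LSD1 peaks of 1 list only with a −log10 q of at least 2; further ones were chosen after their values were seen. Members and lists were chosen with earlier results of these data known. The planned gene lists needed an hg19 annotation and were not analysed here. Alternatives were the highest 50% of scores, −log10 q of 2 or more, centres, the whole region, reciprocal overlap of 50%, 1 kb, and flanks of 500 kb; equal LSD1 list length and intervals of 1 kb or wider were added after the data were seen.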

Additional observations from a re-analysis of the deposited data

How the results depend on the processing

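No paired analysis was possible because there was only a single library for each antibody and treatment. Of 53 shares recomputed, 38 stayed within the counting interval of the reported value, as did all shares over the whole region with its gaps and all at equal LSD1 list length. The counting intervals are wide at such small counts, so staying within them is a weak check. A −log10 q of 2 or more could not change the share of H3K4me2 with H3K4me1, since both histone lists start above 2. Of 17 counts over the 3 stretches, 12 stayed within 1.5 times. With the highest 50% of scores, the stretches held 4 DMSO and 5 inhibitor LSD1 peaks, 15 H3K4me2 and 3 H3K4me1 intervals, and with a −log10 q of 2 or more 4 DMSO LSD1 peaks. With reciprocal overlap of 50%, H3K4me2 lay under 25.0% of DMSO and 14.3% of inhibitor LSD1 peaks (14.2% and 13.5% over all chromosomes), and H3K4me1 under 0% of both (8.23% and 6.36%); of H3K4me2 intervals, 7.69% met H3K4me1 (15.2% over all chromosomes), 11.5% DMSO LSD1 (7.85%) and 7.69% inhibitor LSD1 (8.20%). H3K4me1 lay under 0% of DMSO LSD1 peaks whose −log10 q was at least 2 (0 of 4; 49.4% over all chromosomes), and under 0% of DMSO (0 of 4; 39.03%) and 0% of inhibitor peaks (0 of 5; 34.4%) with the highest 50% of scores. DMSO LSD1 met 7.69% of H3K4me2 intervals at a −log10 q of 2 or more (20.7% over all chromosomes) and 13.3% with the highest 50% of scores (28.5%). Inhibitor LSD1 lay within 1 kb of 57.7% (62.3% over all chromosomes). Among H3K4me2 intervals of 1 kb or wider, 62.5% met DMSO and 75.0% inhibitor LSD1 (58.6% and 68.2%). The low share of H3K4me2 with H3K4me1 was below that over all chromosomes within 1 kb and with the highest 50% of scores. It was also below it over the whole region and at 1 kb or wider. With reciprocal overlap the share was lower too, but on only 2 of 26 intervals (7.69% against 15.2%). No counting interval was made for that setting, so a difference is not shown there. Equal LSD1 list length, centres and other flanks do not enter this share. By construction, fewer peaks enter the score settings and fewer LSD1 peaks the −log10 q settings. The cause of the other changes was not tested. No comparison at matched depth could be made, since the files give no depth.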
